A study of Mus musculus with 12 samples.

Results

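The nuclear-encoded subunits of respiratory complex I were taken as all genes whose symbol begins with Nduf followed by a, b, c, s or v and a digit, leaving out pseudogene symbols and the Ndufaf assembly factors. This gave 37 of the 24062 genes counted. Their mRNA was described in liver and in gastrocnemius, a hindlimb muscle, from 12 libraries of poly(A) RNA made from 6 female C57BL/6N mice on chow. WT animals 6, 8 and 9 were 9, 9 and 7.4 weeks old, and animals 5, 7 and 12, homozygous for Mars2 R135W (R135W/R135W), were 9, 7.4 and 8.6 weeks old. Each animal gave 1 liver and 1 gastrocnemius library, so each of the 4 groups had n = 3 animals. Strain, sex and diet were shared by all groups, and how the allele was made is not given in the sources used here.

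Complex I is the entry point for electrons from NADH into the mitochondrial respiratory chain. Its peripheral arm carries flavin and iron-sulfur clusters to the ubiquinone site, and its membrane arm pumps protons. The genes described here are transcribed in the nucleus, whereas the pumping core of the membrane arm is encoded by mitochondrial DNA and made on mitochondrial ribosomes. Mars2 encodes the mitochondrial methionyl-tRNA synthetase, which supplies those ribosomes with charged methionine tRNA. Gastrocnemius is a mixed muscle of mostly fast fibres, and liver is built mainly of hepatocytes. Both tissues depend on oxidative phosphorylation.

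The 37 members comprise 3 core subunits of the NADH-oxidising (N) module, 4 core subunits of the ubiquinone-reducing (Q) module, 9 accessory subunits of the peripheral arm and 19 accessory subunits of the membrane arm. The membrane arm was divided into 9 members of its proximal part and 10 of its distal part. The remaining 2 members are Ndufa4, now known as a subunit of complex IV, and its paralog Ndufa4l2. The label therefore holds for 35 of the 37 members. The genes lie on 15 chromosomes, with 5 on chromosome 17 and 2 on X. The acyl carrier subunit Ndufab1 falls outside the symbol rule and is given separately.

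The libraries held 20751583 to 30460237 counts. Members had 739 to 21610 counts per library except for Ndufa4l2, which had 34 to 182. All 37 members passed the filter on low counts in every comparison. Tissue labels were checked against marker genes. The 8 hepatocyte markers summed to 98964 to 99894 CPM (counts scaled to a common library size) in WT liver and 79239 to 85689 CPM in R135W liver. They summed to 10.9 to 19.6 CPM in WT gastrocnemius and 10.6 to 53.2 CPM in R135W gastrocnemius, where animal 12 had 29.5 CPM of the hepatocyte gene Alb. The 9 fast fibre markers summed to 143731 to 190566 CPM in gastrocnemius and 0.801 to 1.82 CPM in liver. Mars2 itself was read at 2.24, 2.5 and 3.4 CPM in WT liver and 2.6, 2.4 and 3.63 CPM in R135W liver, with overlap. In gastrocnemius it was at 12.8, 10.9 and 12.0 CPM in WT and 10.6, 9.49 and 8.88 CPM in R135W, lower without overlap but not called (log2 fold change -0.31, SE 0.108, adjusted p = 0.295 by edgeR's test). The counts per gene do not read the R135W base change, so the genotype labels were not checked.

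Within a tissue the subunit mRNAs spanned a wide range although the mature complex holds most of its subunits in equal number. Levels were compared between genes as CPM per kilobase (kb) of exon length. That length covers every annotated exon of a gene, from 349 to 2927 bases, and can exceed the length of the mRNA made. Ranges and ranks per kb therefore depend partly on the annotation. Among the 35 complex I subunits the WT means ran from 19.4 to 290 CPM per kb in liver, a 15-fold range. In WT gastrocnemius they ran from 36.8 to 546 CPM per kb, a 14.9-fold range. The median over all 37 members was 111 CPM per kb in WT liver and 209 CPM per kb in WT gastrocnemius.

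Ndufa4 had the highest level per kb in both tissues, with 510 ± 39.5 CPM per kb (mean ± SD, n = 3) in WT liver and 667 ± 36.8 in WT gastrocnemius. In WT liver it was followed by Ndufa6, an accessory subunit at the base of the peripheral arm, with 290 ± 21.5 CPM per kb, and by Ndufb9, a distal membrane arm subunit, with 278 ± 7.08. These 2 neighbours overlapped in WT liver: Ndufa6 spanned 267 to 310 CPM per kb and Ndufb9 spanned 269.9 to 284. In WT gastrocnemius the next places were taken by Ndufb9 (546 ± 20.8 CPM per kb) and Ndufb8 (483 ± 24.3 CPM per kb), also a distal membrane arm subunit, and their libraries did not overlap. Ndufa6 fell to rank 10 in that tissue. At the lower end stood Ndufa4l2 with 1.80 ± 0.244 CPM per kb in WT liver and 5.20 ± 0.649 in WT gastrocnemius.

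Next lowest in WT liver was Ndufa11, which contributes to the proximal membrane arm (19.4 ± 3.92 CPM per kb), followed by the core subunit Ndufs1 (35.1 ± 3.90). Ndufa11 has 2661 exon bases, and before division by length its 51.7 CPM in WT liver lay above the 38.7 CPM of Ndufa12, which has 561. In WT gastrocnemius the places above Ndufa4l2 were held by Ndufv3, an accessory subunit of the NADH-oxidising module (36.8 ± 1.69 CPM per kb), and Ndufa11 (39.9 ± 2.46), which overlapped. Ndufs1 moved from rank 35 of 37 in WT liver to rank 29 in WT gastrocnemius. The ranks of the 37 members in the 2 tissues had a Spearman rho of 0.822. That value is across genes, which share libraries and exon lengths and are not independent replicates.

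**Figure D1:**
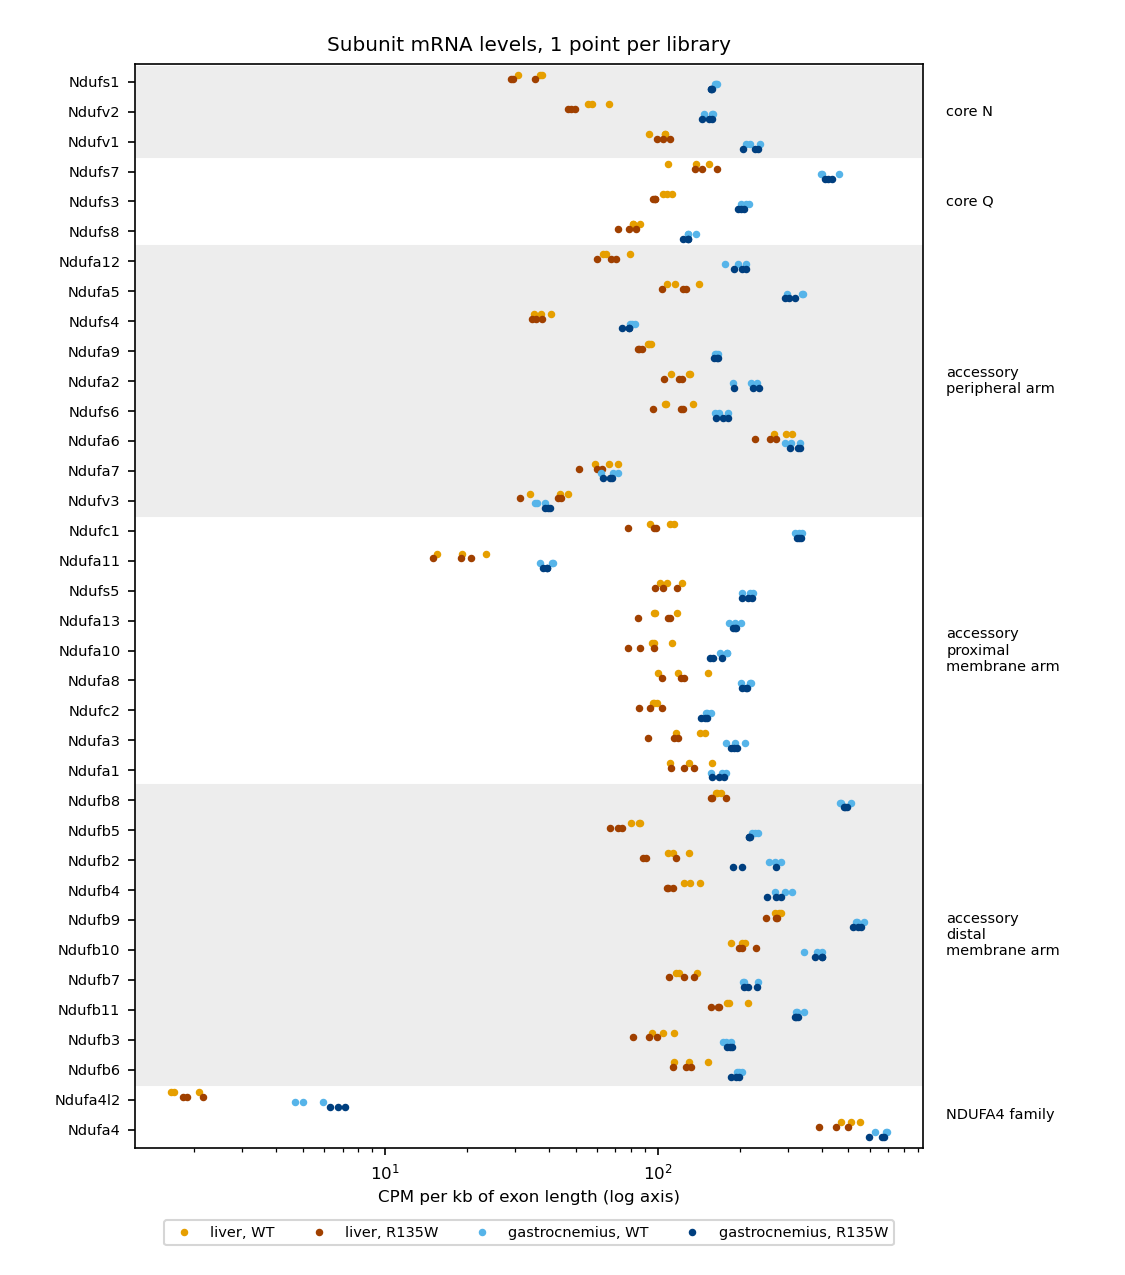
Level of each subunit mRNA in each of the 12 libraries, as CPM per kb of exon length on a log axis, with 1 point per library coloured by tissue and genotype and genes grouped by position in the complex. For most genes drawn every gastrocnemius point lies above every liver point, and Ndufa4l2 lies far below the rest in both tissues.

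The annotation used for counting places some members on top of other genes. Because fragments were counted without a strand option and for every gene they overlapped, shared stretches add to both genes. Ndufs5 shares 95.1% of its exon length with BC002163, a gene model that also has an exon on another chromosome, so its level is uncertain. Ndufa13 shares 27.5% with Tssk6 on the opposite strand. The shared portion was 9.97% for Ndufa2, 8.47% for Ndufs1, 7.27% for Ndufb11 and 3.53% for Ndufa4l2, each with a gene on the opposite strand.

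Subunit transcripts were more abundant in gastrocnemius than in liver in both genotypes. Summed over the 37 members, WT liver libraries of animals 6, 8 and 9 held 3732, 3428 and 3375 CPM, and their gastrocnemius libraries held 7028, 7497 and 7073 CPM. R135W livers of animals 5, 7 and 12 held 3414, 3358 and 3057 CPM, and the matching gastrocnemius libraries held 7174, 7072 and 6955 CPM. Every gastrocnemius sum lay above every liver sum, and within single animals the ratio of muscle to liver ranged from 1.88 to 2.27. In bulk tissue, a different share of cells of a type and a different amount of RNA per cell cannot be told apart.

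Gene by gene, a member was called when edgeR's quasi-likelihood test gave a Benjamini-Hochberg adjusted p under 0.05 over all 15414 genes tested. In WT, 34 of the 37 members were called higher in gastrocnemius and none lower, where 41.2% of all genes tested were called higher. In R135W, 35 of 37 were called higher and none lower, against a background of 41.1%. The median log2 fold change was 0.92 in WT, or 1.89-fold, and 1.0 in R135W, while the medians over all genes tested were 0.00370 and 0.00225. Of the 37, 34 were called in both genotypes. Calls higher by over 2-fold were made for 15 members in WT, where 27.6% of all genes were so called, and for 19 in R135W, where 27.0% were. All 15 were among the 19.

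The core subunit Ndufs1, which binds several iron-sulfur clusters of the peripheral arm, had the largest difference. Its gene lies at chr1:63143592-63176822 (mm10, minus strand). It was read at 89.7, 110.5 and 108 CPM in WT liver (animals 6, 8 and 9) and at 478, 483 and 476 CPM in the gastrocnemius of the same animals. In R135W animals 5, 7 and 12 it was read at 86.1, 84.6 and 104 CPM in liver and 460.5, 459 and 463 CPM in gastrocnemius. The tissues were far apart in every animal. The log2 fold change was 2.22 (SE 0.115, adjusted p = 5.7e-10) in WT and 2.33 (SE 0.116, adjusted p = 3.6e-10) in R135W, by edgeR's test.

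The other core subunits of the N module also rose in muscle. Ndufv2, which carries an iron-sulfur cluster beside the flavin, had WT levels of 94.0, 108 and 91.1 CPM in liver and 260.2, 259 and 242 CPM in gastrocnemius. Its log2 fold change was 1.38 in WT (SE 0.093) and 1.66 in R135W (SE 0.094). Ndufv1, which holds the flavin and the NADH site, gave 1.12 (SE 0.102) and 1.07 (SE 0.102). All 4 tests were called, and the tissues did not overlap in either genotype for these genes.

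The Q module core subunits Ndufs7, Ndufs3 and Ndufs8 were called higher in gastrocnemius in both genotypes, with unequal size. Ndufs7, which carries the cluster next to ubiquinone, was at 117, 82.4 and 105 CPM in WT liver and 302, 349 and 300 CPM in WT gastrocnemius, with log2 fold changes of 1.64 (SE 0.131) and 1.5 (SE 0.130). Smaller differences were found for Ndufs3, a structural core subunit (0.94 and 1.06, SE 0.078 in both genotypes), and for the cluster-binding Ndufs8 (0.67 and 0.71, SE 0.082 in both). Subunits of one module thus differed 1.59-fold for Ndufs8 and 3.13-fold for Ndufs7 between the tissues of the same WT animals.

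The 9 accessory subunits of the peripheral arm were the least uniform group, with WT log2 fold changes from -0.17 to 1.5. In WT 6 of the 9 were called, and in R135W 7 of the 9. Ndufa12 led the group with 1.5 in WT (SE 0.110) and 1.61 in R135W (SE 0.110), and Ndufa5, a small Q module subunit, followed with 1.42 (SE 0.117) and 1.37 (SE 0.117). Ndufs4, whose loss is known to cause Leigh syndrome, gave 1.10 in both genotypes (SE 0.081).

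3 peripheral arm members were not called in WT. Ndufv3 was at 73.8, 69.1 and 53.8 CPM in WT liver and 55.9, 61.0 and 57.2 CPM in WT gastrocnemius, a log2 fold change of -0.17 (SE 0.136, 95% interval -0.47 to 0.12, adjusted p = 0.248 by edgeR's test). Ndufa7 was at 79.7, 85.6 and 70.7 CPM in liver and 82.4, 86.1 and 74.3 CPM in gastrocnemius (log2 fold change 0.04, 95% interval -0.17 to 0.26). Ndufa6, of the LYR protein family, was at 165, 174 and 149.7 CPM in liver and 172, 185 and 163 CPM in gastrocnemius (0.09, 95% interval -0.12 to 0.31). The tissues overlapped for all 3 genes, and their WT intervals leave out a difference as large as the members' median of 0.92.

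In R135W, Ndufv3 had a log2 fold change of 0.00066 (95% interval -0.29 to 0.29) and Ndufa7 of 0.19 (95% interval -0.03 to 0.41), and neither was called. The sign of the Ndufv3 value changed with the scaling. Ndufa6 was called in R135W, with 151, 144 and 127 CPM in liver and 183, 186 and 171 CPM in gastrocnemius (log2 fold change 0.35, SE 0.098, adjusted p = 0.0047 by edgeR's test). This call was lost when libraries were scaled by total counts only (0.23, adjusted p = 0.0663 by edgeR's test). The R135W and WT differences of Ndufa6 did not differ past the threshold, as given with the interaction below.

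All 9 accessory subunits of the proximal membrane arm were called higher in gastrocnemius in both genotypes, with WT log2 fold changes from 0.34 to 1.62. Ndufc1, a small single-span subunit, was at 47.5, 45.9 and 38.9 CPM in WT liver and 132, 139.5 and 136 CPM in WT gastrocnemius. In R135W it was at 40.1, 40.8 and 32.1 CPM in liver and 139, 136 and 134 CPM in gastrocnemius. Its log2 fold change was 1.62 (SE 0.106) in WT and 1.86 (SE 0.107) in R135W, without overlap. The X-linked Ndufa1 gave the smallest difference among called members in WT, 0.34 (SE 0.122, adjusted p = 0.0196 by edgeR's test). Its WT libraries overlapped, at 54.7 to 78.2 CPM in liver and 77.2 to 88.0 CPM in gastrocnemius, and its call was lost without animal 8 (0.18, adjusted p = 0.214) and without animal 9 (0.32, adjusted p = 0.0986), by edgeR's test. Without animal 6 it was 0.54, and over its 13 alternatives the adjusted p ranged from 0.00173 to 0.214.

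All 10 accessory subunits of the distal membrane arm were also called in both genotypes and none of them overlapped between tissues. Of all genes tested, 42.4% were higher in gastrocnemius without overlap in WT and 42.1% in R135W. Ndufb8, whose protein is widely used as a marker of assembled complex I, was at 109, 106 and 105 CPM in WT liver and 302, 327 and 299 CPM in WT gastrocnemius. Its log2 fold change was 1.54 (SE 0.090) in WT and 1.56 (SE 0.090) in R135W. Ndufb5 followed with 1.45 (SE 0.082) and 1.61 (SE 0.082), and the group's smallest value in WT was 0.59, for Ndufb6.

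The NDUFA4 pair differed in the size of the tissue difference. Ndufa4 was at 270.1, 252 and 231 CPM in WT liver and 338, 339.7 and 307 CPM in WT gastrocnemius, a log2 fold change of 0.39 (SE 0.113) in WT and 0.53 (SE 0.113) in R135W. Ndufa4l2, which is known as a hypoxia-inducible gene, stayed at 1.58 to 2.07 CPM in liver and 4.51 to 6.88 CPM in gastrocnemius over both genotypes. Its log2 fold change was 1.53 (SE 0.162) in WT and 1.79 (SE 0.157) in R135W. The gene counted lowest in both tissues was therefore among the 5 members with the largest difference in R135W. Ndufa4l2 shares 34 exon bases with Shmt2 on the opposite strand, and the part of its counts from there was not measured.

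**Figure D2:**
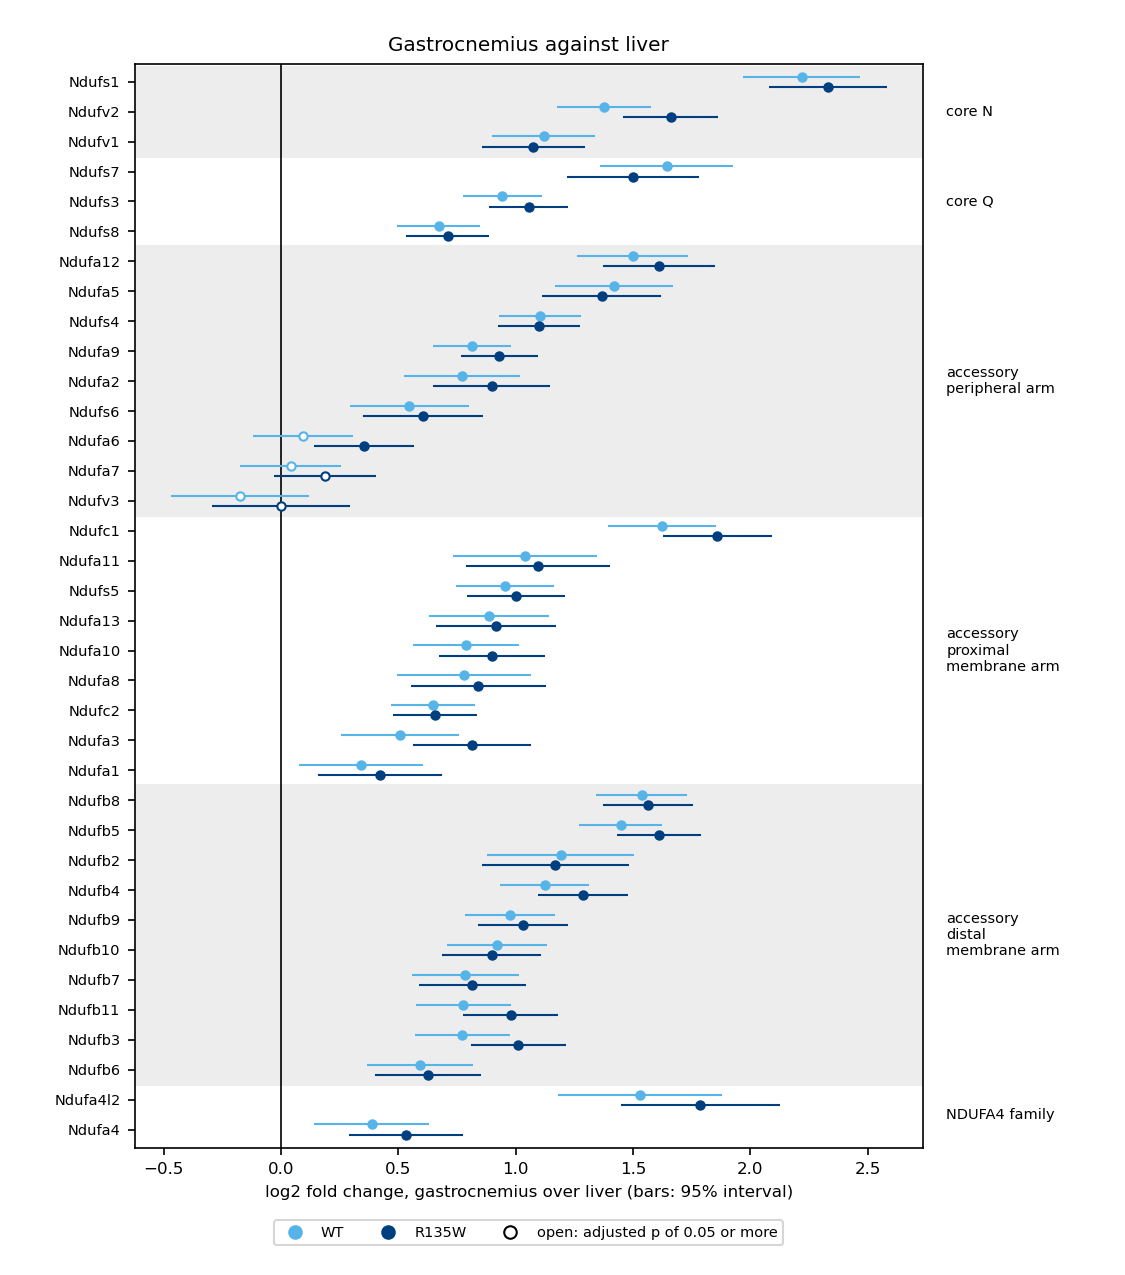
Log2 fold change of each subunit mRNA between gastrocnemius and liver in WT and in R135W animals, with 95% intervals, and open points for members that were not called. The open points are those of Ndufv3 and Ndufa7 in both genotypes and of Ndufa6 in WT, of which Ndufv3 in WT lies left of 0 at -0.17, and Ndufs1 stands furthest right at 2.22 and 2.33.

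The WT and R135W contrasts come from different animals and different libraries. Across the 37 members their log2 fold changes had a Spearman rho of 0.966, a description over genes that share libraries within each contrast. The largest gap between the contrasts was 0.31, for Ndufa3.

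Promoter sequences were read for members with large and with small tissue differences. RefSeq promoter entries (build GRCm38.p6) matched 32 of the 37 members, and the 250 bases before the start were searched on both strands. For 20 of the 32 the RefSeq start was the gene end used for counting, and the largest distance was 538 bases. The letters searched were CGCANGCG (NRF1), CCGGAAG (ETS factors such as GABPA), AAGGTCA (estrogen-related receptors), AAGATGG (YY1) and GGGCGG (SP1). None of these strings contains another. The 6 windows shown were chosen after the values were seen, and capitals mark every match to any of the 5 strings. Ndufs7 (chr10:80249199-80249448, plus strand) and Ndufc1 (chr3:51408956-51409205, minus strand) had the largest WT differences among matched members, Ndufa12 (chr10:94198785-94199034, plus strand) and Ndufa5 (chr6:24527691-24527940, minus strand) the largest among those with the NRF1 letters, and Ndufa7 (chr17:33824322-33824571, plus strand) and Ndufv3 (chr17:31519865-31520114, plus strand) the smallest.
Ndufs7: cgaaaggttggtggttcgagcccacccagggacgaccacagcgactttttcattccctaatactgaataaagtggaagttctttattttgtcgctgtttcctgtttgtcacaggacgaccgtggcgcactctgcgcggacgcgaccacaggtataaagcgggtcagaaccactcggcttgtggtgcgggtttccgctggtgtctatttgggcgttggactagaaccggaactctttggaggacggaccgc
Ndufc1: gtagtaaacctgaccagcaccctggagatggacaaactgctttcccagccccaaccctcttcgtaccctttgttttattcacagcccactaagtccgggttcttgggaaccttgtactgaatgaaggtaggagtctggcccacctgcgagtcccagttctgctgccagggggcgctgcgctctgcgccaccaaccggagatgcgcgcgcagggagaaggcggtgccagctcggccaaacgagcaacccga
Ndufa12: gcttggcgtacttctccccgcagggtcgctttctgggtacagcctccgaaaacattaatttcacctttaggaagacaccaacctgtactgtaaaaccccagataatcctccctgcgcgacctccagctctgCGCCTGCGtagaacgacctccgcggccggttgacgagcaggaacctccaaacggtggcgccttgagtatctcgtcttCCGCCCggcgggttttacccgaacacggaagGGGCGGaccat
Ndufa5: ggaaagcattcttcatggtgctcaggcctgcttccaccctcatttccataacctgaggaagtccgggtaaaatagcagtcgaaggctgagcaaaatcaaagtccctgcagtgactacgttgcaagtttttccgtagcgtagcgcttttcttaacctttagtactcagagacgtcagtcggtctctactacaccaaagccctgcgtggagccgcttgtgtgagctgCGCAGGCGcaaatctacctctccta
Ndufa7: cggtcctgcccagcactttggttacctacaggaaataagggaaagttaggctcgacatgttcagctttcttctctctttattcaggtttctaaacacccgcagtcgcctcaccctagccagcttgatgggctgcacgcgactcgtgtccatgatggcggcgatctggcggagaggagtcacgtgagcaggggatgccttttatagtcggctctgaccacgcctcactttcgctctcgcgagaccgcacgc
Ndufv3: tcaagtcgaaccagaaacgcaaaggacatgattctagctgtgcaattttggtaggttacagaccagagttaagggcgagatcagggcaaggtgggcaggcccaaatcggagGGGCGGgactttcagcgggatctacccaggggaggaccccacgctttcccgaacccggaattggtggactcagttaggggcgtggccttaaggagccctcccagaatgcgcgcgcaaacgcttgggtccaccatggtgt

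The windows of Ndufs7, Ndufc1 and Ndufa7 held none of the 5 strings, although the first pair had large tissue differences and Ndufa7 had one near 0. The NRF1 letters were found in 8 of the 32 member windows (25%) and in 6.76% of all 32851 promoter windows of the same length. Each member had 1 window, the entry nearest the start used for counting. The 32851 were all entries, more than the 24062 genes counted, so the shares of the 2 sets are not of like windows. The estrogen-related receptor letters were found in 3 windows (9.38%, against 4.08% of all) and the ETS letters in 3 (9.38%, against 6.91%). The SP1 letters occurred in 12 (37.5%, against 32.7%) and the YY1 letters in 0 of 32, against 4.49%. The 8 members with the NRF1 letters had WT tissue log2 fold changes from 0.55 to 1.5 with a median of 1.0, and the other 24 had a median of 0.79. A match of letters is a description and not a binding site, and 13 of the 32 windows matched none of the 5 strings.

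Transcript levels of the other nuclear subunits of the respiratory chain gave a frame for these differences. In WT gastrocnemius, 4 of 4 complex II genes, 8 of 9 complex III genes, 10 of 13 complex IV genes and 15 of 16 complex V genes were called higher than in liver, with median log2 fold changes of 0.79, 0.95, 0.56 and 0.85. No complex II, III or V gene was called lower, and 2 complex IV genes were. These were the widely expressed isoforms Cox6a1 (-3.98) and Cox8a (-3.38), whose muscle isoforms Cox6a2 and Cox8b had log2 fold changes of 12.7 and 12.3. Such an exchange between isoform genes was not seen among the 37 members, none of which was called lower. Counts per gene do not show an exchange of transcript forms within a gene. The acyl carrier subunit Ndufab1 was called higher in muscle, with log2 fold changes of 1.0 (SE 0.116) in WT and 1.02 (SE 0.116) in R135W.

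Complex I assembly factors differed between the tissues in both directions. Of 17 such genes, 10 were called higher and 3 lower in WT gastrocnemius, where 41.2% of all genes were called higher and 40.9% lower. In R135W 9 were called higher and 3 lower, where 41.1% and 41% of all genes were. The median log2 fold change of the 17 genes was 0.30 in WT and 0.32 in R135W. Ndufaf5, an enzyme that hydroxylates the core subunit Ndufs7, was at 4.94, 5.78 and 5.10 CPM in WT liver and 47.6, 50 and 47.1 CPM in WT gastrocnemius. Its log2 fold change was 3.19 in WT (SE 0.120) and 3.09 in R135W (SE 0.118), larger than that of any subunit. Ecsit, of an assembly complex for the membrane arm, rose by 1.07 and 1.2 on the log2 scale, and Tmem186 by 0.91 and 0.87. Ndufaf4, which takes part in building the early peripheral arm intermediate, gave 0.37 in WT (SE 0.097) and 0.80 in R135W (SE 0.098), both called. Ndufaf2, which stands in for Ndufa12 during assembly, was lower in WT muscle (-0.96, SE 0.132), opposite to the rise of Ndufa12 itself.

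Among 12 regulators of mitochondrial biogenesis, 5 were called higher and 2 lower in WT gastrocnemius, and 6 higher and 2 lower in R135W. The share called higher in WT was close to the 41.2% of all genes, and the share called lower was under the 40.9% of all genes. Esrra, an estrogen-related receptor, gave log2 fold changes of 1.92 (SE 0.083) in WT and 1.90 (SE 0.082) in R135W. Esrrg, of the same family, gave 3.00 (SE 0.383) and 3.06 (SE 0.385), and the mitochondrial transcription factor Tfb2m gave 1.06 and 1.38. The coactivator Ppargc1a was at 10.4, 14.8 and 10.2 CPM in WT liver and 37.3, 43.1 and 42.0 CPM in WT gastrocnemius (log2 fold change 1.79, SE 0.407). Its paralog Ppargc1b was called in both genotypes, with 0.63 (SE 0.229) in WT and 1.41 (SE 0.229) in R135W. The 2 regulators called lower in WT muscle were Yy1 (-0.47, SE 0.113) and Gabpb1 (-0.42, SE 0.145), a subunit of the ETS factor GABP.

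In liver no subunit mRNA was called different between R135W and WT animals. By edgeR's quasi-likelihood test 0 of 37 passed an adjusted p under 0.05, where 3.28% of the 13935 genes tested did, and DESeq2 and limma-voom also called 0. At an unadjusted p under 0.05 edgeR gave 4 members (DESeq2 3, limma-voom 4), where 17.6% of all genes passed. All 4 had lower estimates in R135W. The 95% interval lay within 1.5-fold in either direction for 35 of the 37 members.

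Ndufv2, the core subunit beside the flavin, had the smallest unadjusted p. It was at 94.0, 108 and 91.1 CPM in WT liver and 76.8, 78.9 and 81.5 CPM in R135W liver, without overlap. The log2 fold change was -0.31 (SE 0.111, 95% interval -0.56 to -0.06, unadjusted p = 0.0204, adjusted p = 0.192). Ndufb4, a distal membrane arm subunit, was at 64.9, 59.6 and 56.8 CPM in WT and 51.7, 49.4 and 49.0 CPM in R135W, also without overlap (-0.28, SE 0.104, adjusted p = 0.215). Ndufa3, a single-span proximal membrane arm subunit, overlapped, at 51.8, 49.9 and 40.7 CPM in WT and 41.4, 39.9 and 32.0 CPM in R135W (-0.33, SE 0.144, adjusted p = 0.276). All adjusted p-values in this paragraph are from edgeR's test over all genes.

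The estimates in liver leaned to one side. Of the 37 members, 32 had a negative log2 fold change, where 50.7% of all genes tested did, and the members' median was -0.10 against -0.0051 over all genes. The 3 WT libraries lay above the 3 R135W libraries without overlap for 6 members, Ndufv2, Ndufb4, Ndufb5, Ndufs3, Ndufa9 and Ndufb11, where 9.54% of all genes were lower without overlap. None was higher without overlap, where 14.1% of all genes were. By position, the medians were -0.17 for the core N module, -0.02 for the core Q module, -0.08 for the accessory peripheral arm, -0.10 for the proximal and -0.15 for the distal membrane arm.

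The size of this lean changed with single libraries and with the scaling. The R135W liver of animal 12 was the lowest of the 6 livers for 25 of the 37 members, where it was the lowest for 20.2% of all genes tested, and the WT liver of animal 6 was the highest for 21, where it was the highest for 18%. Without R135W animal 12 the members' median was -0.03 with 23 of 37 negative, and without WT animal 6 it was -0.06 with 21 negative. Leaving out any of the other 4 livers gave a larger lean, with medians of -0.13 (WT animal 8, 34 negative), -0.13 (WT animal 9, 32 negative), -0.14 (R135W animal 5, 33 negative) and -0.13 (R135W animal 7, 31 negative). Scaled by total counts only, 21 of 37 were negative and the median was -0.0095, while the median over all genes moved to 0.09. The R135W liver of animal 12 also had the most Ppargc1a, with 32.2 CPM where the other 5 livers had 7.21 to 14.8 CPM. That liver was the highest for 20.8% of all genes tested, and the part of Ppargc1a in the lean was not tested.

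Some markers of other cells moved with genotype in the same livers. Of 9 macrophage markers, 8 were called higher in R135W liver, and their summed level was 640 to 714 CPM there against 233 to 383 CPM in the WT livers. All 9 interferon-stimulated genes were called higher, with sums of 564 to 1089 CPM against 181 to 236 CPM. The 9 lymphocyte markers summed to 12.9 to 17.3 CPM in R135W livers against 7.64 to 11 CPM in the WT livers. By edgeR's test 0 of them were called and 5 had an unadjusted p under 0.05, where 17.6% of all genes did. The 6 fibroblast markers summed to 236.8 to 255 CPM against 192 to 236.7 CPM, and 1 of them, Col1a1, was called higher (0.67). Their log2 fold changes went both ways, from -0.29 for Pdgfra to 0.67, with a median of 0.16. Dcn, the most abundant of them, overlapped, at 131, 149 and 115 CPM in WT and 127, 125 and 129 CPM in R135W liver. The 5 adipocyte markers had lower sums, at 2.73 to 3.30 CPM against 3.92 to 6.24 CPM, but these were nearly all Cidec. It was at 6.20, 3.53 and 5.02 CPM in WT and 2.90, 2.69 and 2.81 CPM in R135W liver. Cidec was the 1 gene passing the filter and was not called. Lep was at 0 in every liver, and Adipoq, Plin1 and Retn were at 0.294 CPM or less. The hepatocyte sums did not overlap either, as given above, although none of the 8 genes was called. Endothelial and erythroid sums overlapped between the genotypes. The part of these shifts in the members' lean was not tested.

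Other respiratory chain subunits gave 0 called genes in R135W liver, with medians of -0.02, -0.12, -0.11 and -0.09 for complexes II, III, IV and V. Of the 17 assembly factors, Ndufaf4 was called. It was at 28.9, 27.4 and 29.5 CPM in WT liver and 21.6, 20 and 18.7 CPM in R135W liver, without overlap (log2 fold change -0.52, SE 0.112, adjusted p = 0.0453 by edgeR's test). The call was lost without any 1 of the 6 livers, where the log2 fold change ranged from -0.57 to -0.46 and the adjusted p from 0.0861 to 0.149. It was also lost with age as a covariate, where the log2 fold change was as large (-0.52, adjusted p = 0.0987), and with total counts only (-0.42, adjusted p = 0.115). Over all 14 alternatives the adjusted p ranged from 0.00749 to 0.149 and the direction was the same. Of the 12 biogenesis regulators none was called, and the smallest unadjusted p-values belonged to Tfb2m (-0.41, adjusted p = 0.118) and Yy1 (-0.29, adjusted p = 0.292), by edgeR's test. Tfb2m was called when all 12 libraries were fitted together (-0.41, adjusted p = 0.0160), and over its alternatives the adjusted p ranged from 0.0160 to 0.295.

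In gastrocnemius no subunit mRNA was called different between the genotypes either. edgeR called 0 of 37, where 0.875% of the 13826 genes tested were called, and DESeq2 and limma-voom also called 0. All 3 tools gave 2 members at an unadjusted p under 0.05, where edgeR gave 11.5% of all genes. Muscle estimates were more precise than those of liver, with a median SE of 0.063 on the log2 scale against 0.125. The 95% interval lay within 1.5-fold for 36 of 37 members.

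Ndufa4l2 had the smallest unadjusted p in muscle and was the one member with a value above 0.1 on the log2 scale. It was at 4.82, 4.51 and 5.71 CPM in WT and 6.08, 6.88 and 6.47 CPM in R135W gastrocnemius, without overlap. The log2 fold change was 0.36 (SE 0.128, 95% interval 0.07 to 0.64, adjusted p = 0.309 by edgeR's test). The part of Ndufa4l2 counts that came from the stretch shared with Shmt2 was not measured. Ndufb2, a small distal membrane arm subunit, was at 116, 129 and 122 CPM in WT and 92.6, 124 and 85.7 CPM in R135W, with animal 7 inside the WT range (-0.29, SE 0.122, adjusted p = 0.393 by edgeR's test). Ndufa10, a proximal membrane arm subunit of nucleoside kinase fold, was at 204, 216 and 216 CPM in WT and 193, 207 and 188 CPM in R135W, with overlap (-0.13, SE 0.063).

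The same R135W animals were low for Ndufb2 in both tissues. In liver it was at 59.4, 51.7 and 49.6 CPM in WT and at 41.2, 53.0 and 40.3 CPM in R135W animals 5, 7 and 12. Animals 5 and 12 thus had the lowest level in each tissue and animal 7 lay within the WT range in each. Without animal 12 the muscle log2 fold change of Ndufb2 was -0.18, and without animal 7 it was -0.47 (adjusted p = 0.0754 by edgeR's test). Over the 14 alternatives of that comparison the adjusted p of Ndufb2 ranged from 0.0754 to 0.862. Ndufab1 had a like order, with 107, 126 and 106 CPM in WT muscle and 84.6, 108 and 84.9 CPM in R135W muscle, and 58.9, 58.3 and 52.2 against 44.3, 49.9 and 43.1 CPM in liver. Its log2 fold changes of -0.30 in muscle (adjusted p = 0.309) and -0.31 in liver (adjusted p = 0.204) were not called by edgeR's test. Ndufa10 was the other member whose lowest pair of libraries came from animals 5 and 12 in both tissues. For 7 members the 2 lowest libraries came from the same animals in both, and only 2 of these 7 had animals 5 and 12. The share over all genes was not computed, so this count is a description only.

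The muscle estimates as a set were close to 0. Of the 37 members 28 were negative, where 50.1% of all genes were, and the median was -0.03. Scaled by total counts only, 32 were negative with a median of -0.06, where the median over all genes was -0.03. With all 12 libraries in the fit, 24 were negative with a median of -0.02, where the median over all genes was 0.016. Ndufs1, Ndufs4 and Ndufb5 were lower without overlap, where 7.14% of all genes were, and Ndufa4l2 and Ndufv3 were higher without overlap, where 9.10% were. Ndufb5, a distal membrane arm subunit, was lower without overlap in both tissues. The share of all genes lower without overlap in both was not computed. Ndufb5 was called in neither, with adjusted p-values of 0.276 in liver and 0.606 in gastrocnemius by edgeR's test. It was at 85.3, 85.8 and 79.5 CPM in WT against 71.7, 74.0 and 66.7 CPM in R135W liver (log2 fold change -0.24), and at 222, 234 and 227 against 216, 216 and 217 CPM in gastrocnemius (-0.09). The WT muscle of animal 8 was the highest of its tissue for 25 of 37 members, where it was the highest for 13.6% of all genes. Without it the members' median was 0.0026 with 18 negative, and without R135W animal 12 it was -0.00076 with 19 negative. Leaving out any of the other 4 muscles gave medians of -0.05 (WT animal 6, 31 negative), -0.03 (WT animal 9, 30 negative), -0.04 (R135W animal 5, 29 negative) and -0.05 (R135W animal 7, 27 negative).

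Lists of other transcripts were read beside these values. In WT gastrocnemius the 7 endothelial markers summed to 201 to 221 CPM per library. The R135W sums were higher without overlap, at 260.1 to 285 CPM, and 1 of the 7 genes, Kdr, was called (0.77). Of the 9 interferon-stimulated genes 4 were called higher in R135W gastrocnemius, where their sums were 67.6 to 108 CPM against 37.1 to 44.5 CPM for WT. The part of these shifts in the members' values was not tested. Slow or oxidative fibre markers summed to 7457 to 8363 CPM in WT gastrocnemius, and to 7103 to 8149 CPM in that of R135W animals. Myh2 held the largest part of these sums, at 3286, 3557 and 3379 CPM in WT and 3447, 3812 and 3895 CPM in R135W. The 9 genes had a median log2 fold change of -0.25, from -0.43 to 0.11. None of these 9 genes was called, and 5 had an unadjusted p under 0.05 by edgeR's test, where 11.5% of all genes did. The part of these fibre marker values in those of the members was not tested either. None of the complex II to V genes, assembly factors or biogenesis regulators was called in that comparison. The smallest unadjusted p-values in the assembly and regulator lists belonged to Tmem186 (-0.22, adjusted p = 0.221), Ndufaf2 (0.27, adjusted p = 0.371), Ppargc1b (0.48, adjusted p = 0.385) and Esrrg (-0.25, adjusted p = 0.449), all by edgeR's test.

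**Figure D3:**
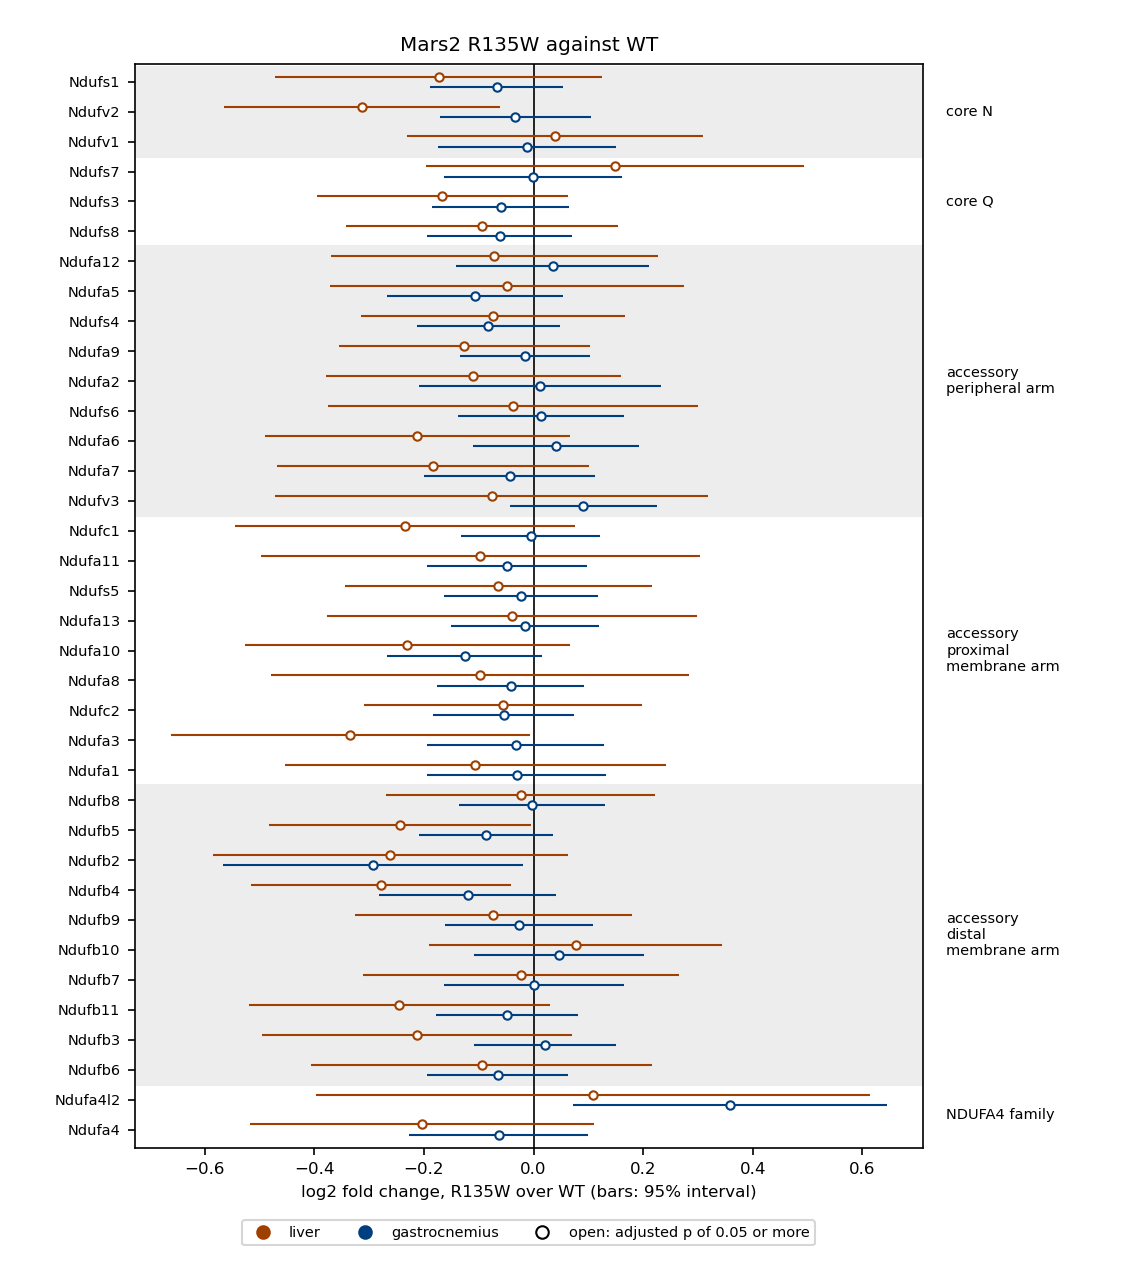
Log2 fold change of each subunit mRNA between R135W and WT animals in liver and in gastrocnemius, with 95% intervals. All points are open because no member was called, and the gastrocnemius intervals are narrower than those of liver for nearly the whole list.

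**Figure D4:**
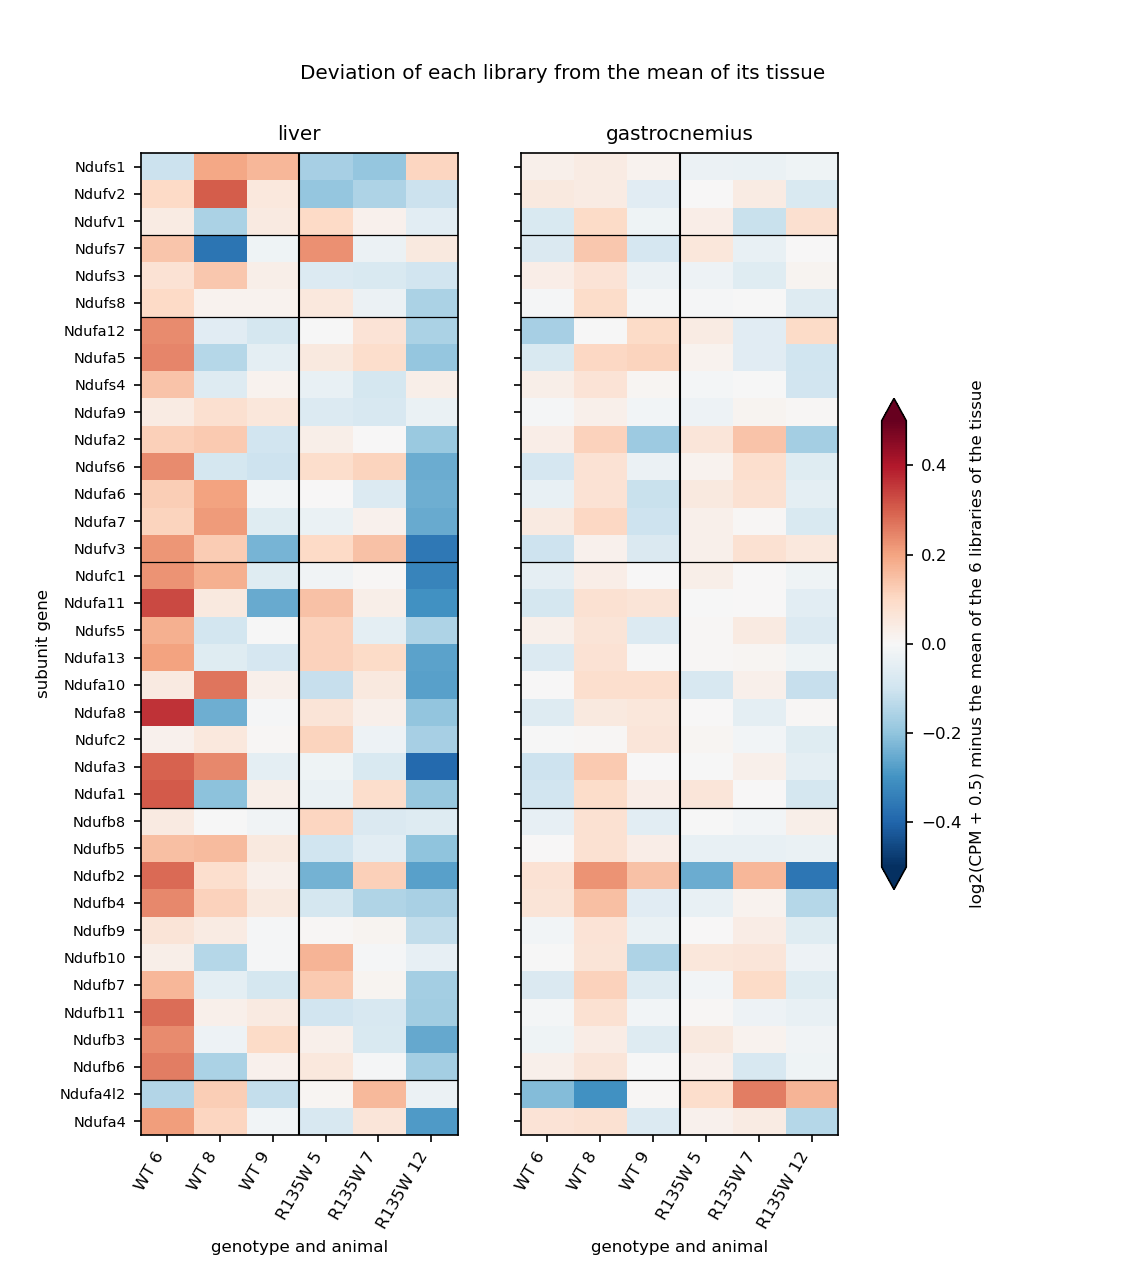
Deviation of log2(CPM + 0.5) in each library from the mean of the 6 libraries of its tissue, with genes in rows and libraries in columns, with WT left and R135W right of the line. The liver column of R135W animal 12 is mostly blue and that of WT animal 6 mostly red, and Ndufb2 is blue in animals 5 and 12 in both panels.

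Whether the R135W difference was unlike in the 2 tissues was tested by an interaction term in the fit of all 12 libraries. edgeR called 0 of 37 members, where 0.13% of all 15414 genes were called, and DESeq2 and limma-voom also called 0. At an unadjusted p under 0.05 edgeR gave 1 member (DESeq2 2, limma-voom 1), where 9.95% of all genes passed. That member was Ndufv2, with an interaction of 0.29 on the log2 scale (SE 0.129, adjusted p = 0.491 by edgeR's test), from -0.31 in liver and -0.03 in gastrocnemius. Next were Ndufa3 (0.31, SE 0.164) and Ndufa6 (0.26, SE 0.139, 95% interval -0.04 to 0.56). The median interaction of the members was 0.08 against 0.014 over all genes, and 30 of the 37 were positive, where 51.9% of all genes were. The assembly factor Ndufaf4 gave 0.43 (SE 0.137, adjusted p = 0.315 by edgeR's test), so its liver value was not shown to differ from that in muscle. Ndufaf2 gave 0.44, Tfb2m 0.32 and Ppargc1b 0.78, with adjusted p-values of 0.445, 0.401 and 0.434 by edgeR's test.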

How the data were processed

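RNA was poly(A)-selected and sequenced as read pairs, per the labels' protocols. The authors deposited raw counts per gene symbol, made with featureCounts 1.5.2 over mm10 exons as pairs, primary alignments only, with no strand option and with overlapping genes each counted, per the file headers. STAR 2.4.0 is named as a tool in the submitters' processing notes. Gene exon length, deposited beside the counts, was used for levels per kb. All rows name a gene. The labels give separate animals, and no replicate pair held identical values.

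Counts were fitted with edgeR 4.0.16 (TMM scaling, filterByExpr, quasi-likelihood F test, R 4.3.3), within each tissue for genotype and over 12 libraries in 4 groups for tissue and interaction. Calls used a Benjamini-Hochberg adjusted p under 0.05 over all genes tested. CPM values use TMM factors over the 12 libraries. Standard errors were obtained from each estimate and its F statistic. DESeq2 1.42.0 and limma-voom (limma 3.58.1) were alternatives, with other scalings and filters, age as a covariate, a replicate block and single libraries or animals left out. Scripts were tested on simulated data.

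Named members were up to 5 called per direction with the largest fold change, or the 3 smallest p, per comparison, the 3 highest and lowest levels, core subunits and the NDUFA4 pair, plus up to 4 called genes (or 2) of the assembly and regulator lists. Other members were named where a count or a library pointed to them, after their values were seen. Of the 37 members, 1 is included in the counts, sums and medians but is not reported here by itself or drawn. The members and lists were chosen with earlier results of these data known. Animal numbers in the labels pair liver with gastrocnemius. Deviations from the group means had correlations of -0.0019 to 0.082 within animals and -0.073 to 0.065 between animals.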

Additional observations from a re-analysis of the deposited data

How the results depend on the processing

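The calls on members held in every alternative for genotype, with 0 called in liver, gastrocnemius and the interaction. The smallest adjusted p of any member was 0.0645 in liver (all 12 libraries in the fit), 0.0754 in gastrocnemius and 0.255 for the interaction. Members called higher in gastrocnemius numbered 33 to 34 in WT and 34 to 35 in R135W. With the replicate block (animal as a term) they numbered 34 and 35, with 0 for the interaction, so the pairing changed no member's call. Without the gastrocnemius library of R135W animal 12, an alternative chosen after seeing the data, 35 were called in R135W and 0 for the interaction. With total counts only, the R135W tissue median of the members was 0.88, where the median over all genes was -0.12. Leaving out single libraries gave members' medians of -0.14 to -0.03 in liver and -0.05 to 0.0026 in gastrocnemius. Leaving out animals gave 0.86 to 1.0 for the WT and 0.96 to 1.05 for the R135W tissue difference. The interaction median was -0.04 with total counts only, where the median over all genes was -0.12. Leaving out animals gave interaction medians of -0.00075 (without animal 6) to 0.13 (without animal 8).

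Among uncalled values near 0, the R135W tissue difference of Ndufv3 was -0.0115 with RLE size factors and with DESeq2, -0.116 with total counts only and -0.0485 with at least 1 CPM in every library. Leaving out animals gave -0.148 (without animal 12) to 0.0828. The interaction of Ndufab1 was -0.103 with total counts only, and -0.0486 (without animal 6) to 0.0816 over the animals left out, with -0.0388 without animal 7. The cause was not tested. Over all genes, edgeR called 457 in liver, 121 in gastrocnemius and 20 for the interaction, of which 62.0% were higher in gastrocnemius and 25% for the interaction. DESeq2 called 781 (68.8% higher, against 84.0%), 274 and 184 (42.4% higher). With all 12 libraries in the fit the counts were 1057 and 20 in the 2 tissues, and with age 274 in liver. Total counts only gave 57 for the interaction (10.5% higher) and a share of 50% higher in gastrocnemius, and limma-voom gave 7 for the interaction. Leaving out single libraries or animals gave 84 to 285, 3 to 106 and 1 to 7. The 95% interval of the genotype difference lay within 1.5-fold for 35 of 37 members in liver and 36 in gastrocnemius. Counts were lowest for Ndufa4l2, at 34 to 182.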
